A study of Rattus norvegicus with 4 samples.

Results

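The cytosolic ribosomal protein genes were taken from the table as the probe sets whose platform annotation gives exactly 1 gene symbol of the form Rpl or Rps followed by a number, Rplp followed by a number, or Rpsa, without the ribosomal protein kinases. This found 44 of the 4736 gene symbols that stand alone on a probe set, and 64 of the 8799 probe sets of the series: 43 probe sets of 30 symbols for the large subunit and 21 probe sets of 14 symbols for the small subunit. A further 40 probe sets pair with several symbols that include a ribosomal protein, mostly a gene and its processed copies, and were left out by the rule. They include a probe set with a mean intensity of 49.53 that pairs Rpl4 with other genes such as Hbb-bs and B2m. Of the 44 symbols, 7 (9 probe sets) name a pseudogene or a paralog: Rpl3l, Rpl19l4, Rpl36al1, Rplp1l3, Rps27l, Rps2-ps1 and Rps4x-ps9.

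Ribosomal proteins coat and hold together the ribosomal RNA of the cytosolic ribosome. Those of the small subunit line the path of the mRNA and those of the large subunit surround the site of peptide bond formation and the exit tunnel. Their mRNAs are among the most abundant of a growing cell, are made in matched amounts, and mostly begin with a terminal oligopyrimidine tract, a run of C and T bases that couples their translation to the mTOR kinase. In Sertoli cells, which nurse the germ cells, follicle-stimulating hormone (FSH) is known to act on the kinase that phosphorylates ribosomal protein S6.

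Testis RNA came from male Sprague Dawley rats, an outbred strain. The rats had received a control IgG or an antibody against rat FSH for 4 days (the series design adds that both came from sheep), and each group had 2 RNA samples, each on 1 Affymetrix rat array. The labels disagree on age, giving day 18 in the source names, injection from day 18 with collection on day 22 in the treatment protocol, and day 14 in the series design. Antibody replicate 2 carries a title that speaks of postnatal day 4, so its group rests on its source name and treatment protocol. Each RNA sample is described as a pool of about 20 organs, called ovaries in that text, while each source name speaks of a single rat, so p-values measure the spread between these RNA samples.

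Values are intensities, 1 per probe set, and array medians lay between 36.5 and 40.4. Of 19 probe sets of Sertoli cell markers (11 genes) 17 passed the filter on dim probe sets, and of 8 of skeletal and heart muscle markers 3 did. The Sertoli cell genes Clu (clusterin), Inha (the inhibin alpha subunit) and Amh (anti-Müllerian hormone) had 6440 to 7459, 682.0 to 1588 (on the brighter of its probe sets) and 498.4 to 758.1. Whether a marker exceeded background could not be tested without detection calls. Below, changes are log2 differences, antibody minus control, ± SE from limma on log2(intensity + 16), and a probe set was called at an adjusted p under 0.05 (Benjamini-Hochberg over all 5252 tested probe sets). Probe sets were tested if their mean over all arrays reached the 40th percentile.

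Promoter sequences of the members are shown first, and their part in the values below was not tested. RefSeq sequences of assembly GRCr8 around the annotated gene start were matched by gene identifier for 37 of the 44 genes. The 50 bases from 30 before to 20 after the start held the motif TTCCTTT, searched on both strands (reverse complement AAAGGAA, which does not overlap it), in 9 of the 37 windows (24.3%), each time on the strand of the gene, against 1.62% of the windows of 27457 genes (0.863% on the strand of the gene). A run of 8 or more C or T bases lay in 26 of the 37 windows (70.3%) and in 19.9% of all windows. These matches are a description of the letters. The windows with the motif, in capitals, run 5′ to 3′ on the strand of the gene:
Rpl4, chr8:73566447-73566496, plus strand: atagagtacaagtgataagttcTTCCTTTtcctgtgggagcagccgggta
Rpl13a, chr1:104748894-104748943, minus strand: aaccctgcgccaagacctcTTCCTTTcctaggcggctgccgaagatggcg
Rpl19, chr10:83519034-83519083, plus strand: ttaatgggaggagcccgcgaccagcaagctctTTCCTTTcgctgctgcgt
Rpl21, chr12:13386134-13386183, minus strand: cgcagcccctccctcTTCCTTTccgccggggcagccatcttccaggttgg
Rpl23, chr10:83272165-83272214, minus strand: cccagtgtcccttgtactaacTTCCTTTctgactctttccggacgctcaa
Rpl31, chr9:49143081-49143130, plus strand: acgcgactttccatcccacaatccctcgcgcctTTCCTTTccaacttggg
Rps3, chr1:163195757-163195806, minus strand: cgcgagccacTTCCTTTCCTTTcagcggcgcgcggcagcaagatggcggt
Rps10, chr20:5700725-5700774, minus strand: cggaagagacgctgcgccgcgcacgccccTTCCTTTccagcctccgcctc
Rps15, chr7:10068096-10068145, minus strand: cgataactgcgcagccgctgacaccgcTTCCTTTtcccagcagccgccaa

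In Rps3 a pair of overlapping copies of the motif gives a longer stretch of capitals. The motif was absent from 24 of the 33 windows of members without a paralog symbol and from those of the 4 paralogs with a promoter sequence. The latter are shown so that each can be read, and those of Rpl36al1 and Rpl3l hold runs of 10 and 9 C or T bases:
Rpl3l, chr10:14258416-14258465, plus strand: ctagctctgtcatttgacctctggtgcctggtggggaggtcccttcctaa
Rpl36al1, chr6:93392239-93392288, minus strand: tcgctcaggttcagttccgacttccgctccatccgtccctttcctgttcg
Rps27l, chr8:76443628-76443677, plus strand: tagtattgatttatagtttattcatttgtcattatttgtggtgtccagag
Rplp1l3, chr3:163216665-163216714, plus strand: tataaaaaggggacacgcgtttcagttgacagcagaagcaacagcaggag

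The comparison asked whether suppression of FSH changed the ribosomal protein transcripts of the testis. The median log2 change was 0.01 over the 43 large subunit probe sets and 0.08 over the 21 small subunit probe sets, beside 0.03 over all tested probe sets. In the large subunit 23 values lay above 0 and 20 below, and in the small subunit 16 above and 5 below, beside 2902 above and 2350 below over all tested probe sets. Without control replicate 1 the medians were −0.11 and −0.03, in the same order of subunits. No member was called: of the 60 members that were bright enough to be tested, 41 large and 19 small, 0 passed (limma, smallest adjusted p = 0.519), where 0.267% of all tested probe sets were called (14 of 5252; 0.114% higher and 0.152% lower). At an unadjusted p under 0.05 there was 1 member, Rpl3l, of 60, where 8.11% of all tested probe sets stood. Fewer cells of a type and less RNA per cell cannot be told apart in these whole-organ samples.

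The intervals of the differences were narrow for most members. The 95% interval lay within a 1.5-fold change either way for 47 of the 60 tested members, 32 of 41 in the large and 15 of 19 in the small subunit, against 46.4% of all tested probe sets. The members are bright (46 of 64 had a mean intensity over 1000), and among the 236 tested probe sets over that intensity that were not ribosomal the share was 79.7%. A log2 change under 0.2 in size was found for 55 of the 64 members (85.9%), for 60.6% of all tested probe sets and for 79.2% of the 236 bright ones. Values of the groups did not overlap for 14 of the 60 tested members, 7 higher and 7 lower, against 37.4% of all tested probe sets (21.9% higher, 15.5% lower). Among the 236 bright ones there were 67 without overlap, 28 higher and 39 lower. Too dim to be tested were 4 members, namely Rplp1l3, both Rps2-ps1 probe sets and 1 of the 2 Rpl3l probe sets.

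**Figure D1:**
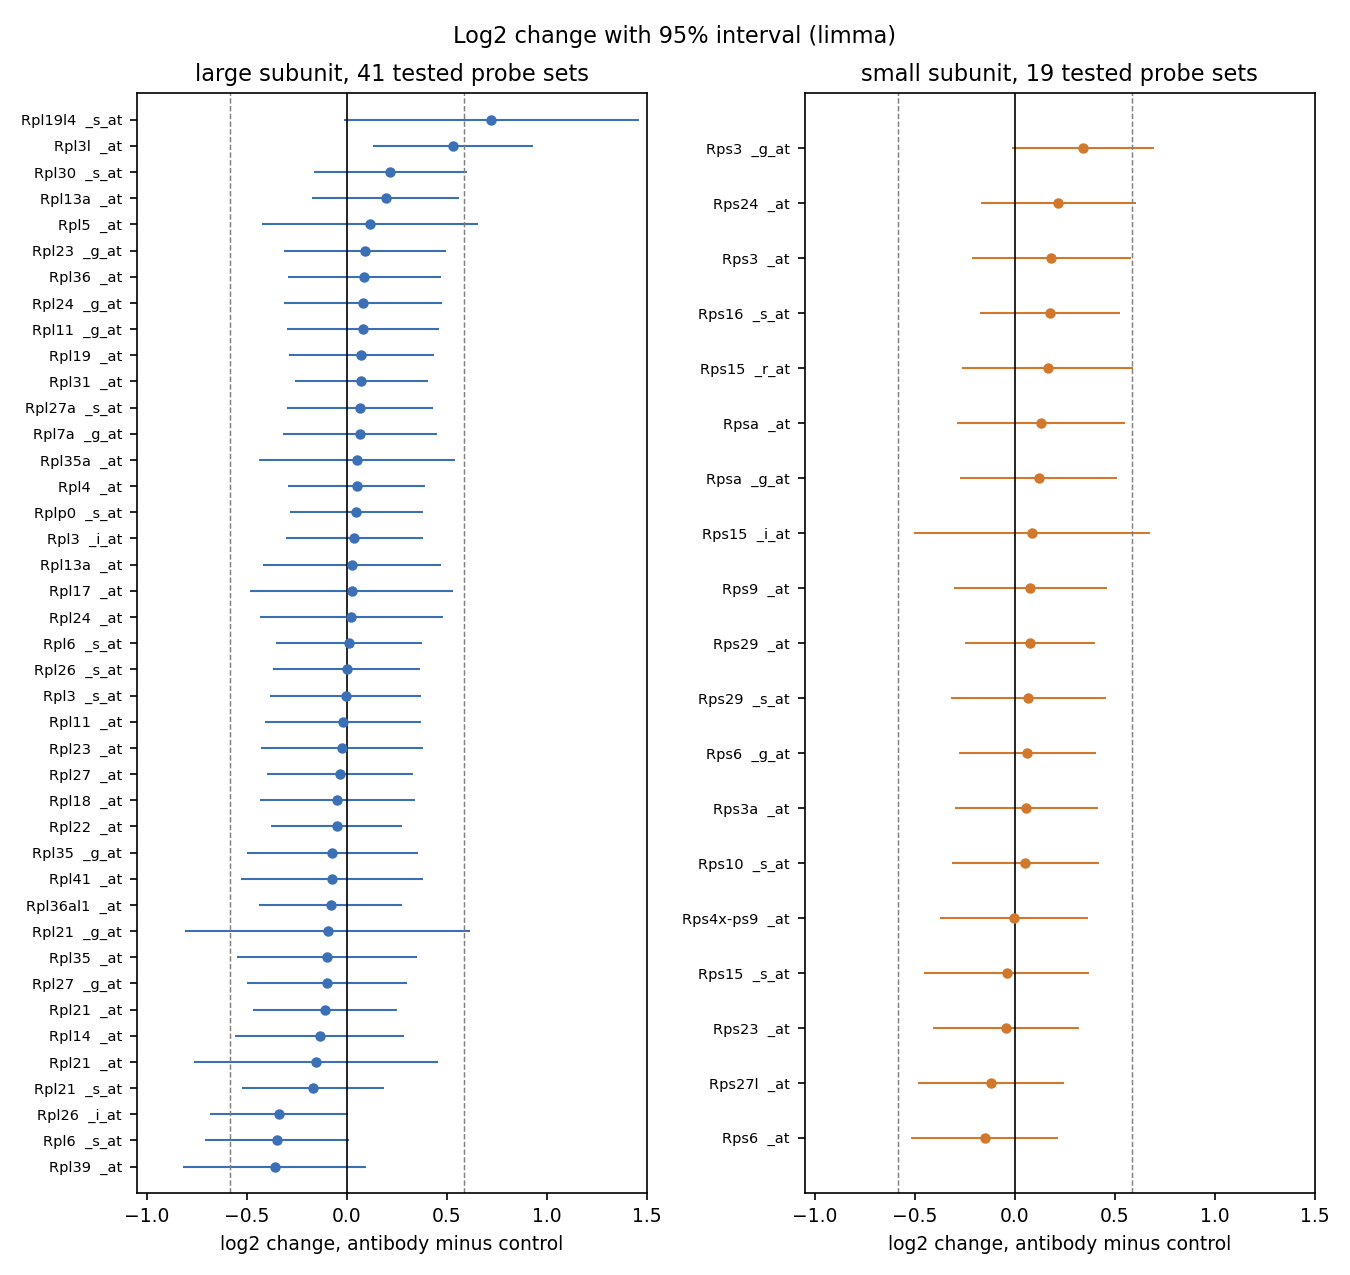
Log2 change of each tested member (points, horizontal axis, antibody minus control) with its 95% interval from limma, n = 2 arrays per group, large subunit left and small subunit right; the gene symbol and the probe set suffix stand on the vertical axis and dashed lines mark a 1.5-fold change either way. The interval of Rpl3l (0.13 to 0.93) is the one that leaves out 0, and Rpl19l4 has the widest.

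In the large subunit the members that stood farthest above 0 were a pair of paralogs. Rpl3l, a form of the core protein Rpl3 known from skeletal muscle and heart, had intensities of 69.7 and 58.9 in the controls and of 103.8 and 95.8 after the antibody. The antibody arrays were both higher, with a log2 change of 0.53 ± 0.18 that did not pass (adjusted p = 0.519). Its second probe set, made from the same sequence, was dim, at 7.7 and 4.8 in the controls and 20.9 and 7.2 after the antibody, and its groups overlapped. The 3 tested probe sets of muscle markers were below 0 and none passed: Ckm (muscle creatine kinase; 48.5 and 47.8, then 27.9 and 26.8) gave −0.57 ± 0.20, Myh1 (a fast myosin heavy chain) −0.31 ± 0.19 and Myh7 (a slow one) −0.10 ± 0.19. Over all 8 probe sets of the list, those too dim to be tested included, 4 lay above 0 and 4 below. The part of these markers in the Rpl3l values was not tested. Rpl3 itself had 3894.0 and 4254.8 against 4434.6 and 3942.8 on 1 probe set, whose groups overlapped (0.04 ± 0.15), and gave −0.0052 ± 0.17 on the other. The first of these turned below 0 with quantile normalization or median centring.

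Rpl19l4, named for its likeness to Rpl19, was at 29.0 and 28.8 in the controls and at 94.8 and 33.6 after the antibody. The difference rested on antibody replicate 1, and the change of 0.72 ± 0.33 did not pass (adjusted p = 0.628). Without antibody replicate 2 it was 1.30 with an adjusted p of 0.000344, a fit that leaves antibody replicate 1 as the lone array of its group. Rpl19 gave 3959.8 and 4469.2 in the controls and 4030.7 and 4859.5 after the antibody, with overlapping groups (0.07 ± 0.16).

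Small positive changes were seen for Rpl30 and for 1 probe set of Rpl13a. Rpl30, a protein of the interface between the subunits, had 126.8 and 115.5 in the controls and 148.9 and 138.1 after the antibody (0.22 ± 0.17, adjusted p = 0.821). A probe set that pairs with Rpl30 and its copies gave 0.36 ± 0.23, with overlap (765.4 and 1257.8 against 1345.6 and 1190.2). Rpl13a, which is also known for a role outside the ribosome in silencing of inflammatory mRNAs, had 919.6 and 1053.5 against 1092.0 and 1166.0 (0.19 ± 0.16, adjusted p = 0.837). Its other probe set, with 2101.3 and 3017.6 against 2369.5 and 2781.7, overlapped between groups and gave 0.03 ± 0.20.

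The lowest changes of the large subunit were those of Rpl39, Rpl6 and Rpl26, and none passed. Rpl39, a small protein of the exit tunnel, had 1447.1 and 1877.0 in the controls and 1496.5 and 1095.2 after the antibody (−0.36 ± 0.20, adjusted p = 0.706). Its groups overlapped, and antibody replicate 2 was the low array. Rpl6 had 2184.0 and 2301.7 against 1624.9 and 1899.9 on 1 probe set, with no overlap (−0.35 ± 0.16, adjusted p = 0.634). On its second probe set, made from another sequence, it had 2106.4 and 2340.2 against 2072.7 and 2418.4, which overlapped (0.01 ± 0.16). Rpl26, which lies near the exit tunnel and is known to bind the p53 mRNA, showed the same split. The probe set ending in _i_at had 2620.3 and 2782.6 against 2026.3 and 2244.9 (−0.34 ± 0.15, adjusted p = 0.633), and the one ending in _s_at had 2855.3 and 3231.5 against 2782.1 and 3318.0 (0.00033 ± 0.16). The low values of Rpl6 and Rpl26 were thus each seen on 1 of 2 probe sets.

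Rpl21 was covered by 4 probe sets from 3 sequences, all below 0, from −0.17 to −0.10. The lowest had 1541.7 and 1609.5 in the controls and 1479.5 and 1325.8 after the antibody (−0.17 ± 0.16, adjusted p = 0.851), without overlap. The probe set with the widest gap between arrays of 1 group, apart from that of Rpl19l4, had 100.6 and 220.6 in the controls and 111.1 and 174.0 after the antibody (−0.10 ± 0.32). None of the 4 passed.

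The brightest probe sets of the large subunit, those of Rpl27a, Rplp0, Rpl19 and Rpl3, had changes between 0.04 and 0.07. Rplp0, the scaffold of the stalk that recruits translation factors, had 4315.5 and 4730.2 in the controls and 4545.6 and 4795.5 after the antibody (0.05 ± 0.15, interval −0.28 to 0.38). Rpl27a had 4619.1 and 5520.4 against 4918.3 and 5685.2 (0.07 ± 0.16, interval −0.30 to 0.43). In both genes the groups overlapped, and in both the first control array was the lowest of the 4. Rplp1l3, a paralog of the stalk protein Rplp1, was at 5.5, 4.7, 8.4 and 1.6 on the control and antibody arrays and could not be tested. Rpl36al1, a paralog of Rpl36a, had 672.4 and 690.1 against 649.6 and 637.3 (−0.08 ± 0.16).

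In the small subunit the highest change was that of a probe set of Rps3, which lines the mRNA entry channel and also acts in DNA repair. Its _g_at probe set had 2388.7 and 2664.8 in the controls and 2984.9 and 3433.2 after the antibody, without overlap (0.34 ± 0.16, adjusted p = 0.634). Its _at probe set, made from the same sequence, had 1378.1 and 1764.1 against 1669.8 and 1880.8, with overlap (0.18 ± 0.18, adjusted p = 0.853). Both lay above 0 and neither passed.

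Rps24, a protein mutated in Diamond-Blackfan anaemia, had 209.3 and 238.7 in the controls and 249.6 and 276.3 after the antibody (0.22 ± 0.17, adjusted p = 0.824). A second probe set from its sequence, which the annotation pairs with a pseudogene as well, gave 0.21. Rps16, which reaches the decoding site, had 4575.8 and 5021.2 against 4990.6 and 5880.5 (0.18 ± 0.16, adjusted p = 0.847). Its groups overlapped by the second control array and the first antibody array.

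Rps6, the substrate of the S6 kinases, had changes of opposite sign on its 2 probe sets. Its _at probe set had 1069.8 and 1046.6 in the controls and 887.6 and 1021.4 after the antibody (−0.15 ± 0.16, interval −0.52 to 0.22). Its _g_at probe set, made from the same sequence, had 2160.1 and 2330.4 against 2313.4 and 2379.4 (0.06 ± 0.15, interval −0.28 to 0.41). Rpsa, which is also the precursor of a laminin receptor, gave 0.13 ± 0.19 and 0.12 ± 0.17. On the first of these it had 1387.3 and 1889.9 against 1676.8 and 1879.0, so that 1 control array lay below and the other above both antibody arrays.

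Rps29, a zinc-binding protein of the subunit's head, had 5174.9 and 5634.1 in the controls and 5672.2 and 5717.5 after the antibody on 1 probe set (0.08 ± 0.14), without overlap. The other had 5434.1 and 6452.5 against 5486.4 and 7024.6 (0.07 ± 0.17), and overlapped. Rps23, a protein of the decoding centre, had 2514.9 and 3007.3 against 2788.8 and 2552.0 (−0.04 ± 0.16). Rps15, which sits in the head of the small subunit, gave −0.04 ± 0.18, 0.09 ± 0.26 and 0.17 ± 0.19 on 3 probe sets, and the second of them ranged from 659.1 to 965.6 within the controls and from 654.2 to 1097.5 within the antibody group. None of these differences exceeded its SE.

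Of the small subunit's paralogs and pseudogenes, Rps27l, a paralog of Rps27 known as a p53 target, had 1079.2 and 1245.1 in the controls and 1064.6 and 1070.4 after the antibody (−0.12 ± 0.16), without overlap. The probe set of Rps4x-ps9 had 594.2 and 615.6 against 567.6 and 641.0 (−0.0037 ± 0.16, and 0.04 with quantile normalization). Probe sets of a pseudogene or a paralog can take up RNA of the related gene. The values of such members, Rps4x-ps9, Rps2-ps1, Rps27l and Rpl36al1 among them, are thus uncertain. The dim Rps2-ps1 probe sets were at 8.5 and 7.7 against 9.8 and 13.1, and at 3.1 and 2.5 against 3.3 and 5.9.

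Probe sets of the same gene mostly lay close together. Of 15 genes with at least 2 tested probe sets (33 in all), 11 had changes within 0.2 of each other, and the median gap was 0.10. The signs were the same in 8 genes and opposite in 7. The widest gaps were those of Rpl6 (0.36), Rpl26 (0.34), Rps6 (0.21) and Rps15 (0.20). In 8 of the 15 genes all probe sets were made from 1 sequence and are not independent.

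**Figure D2:**
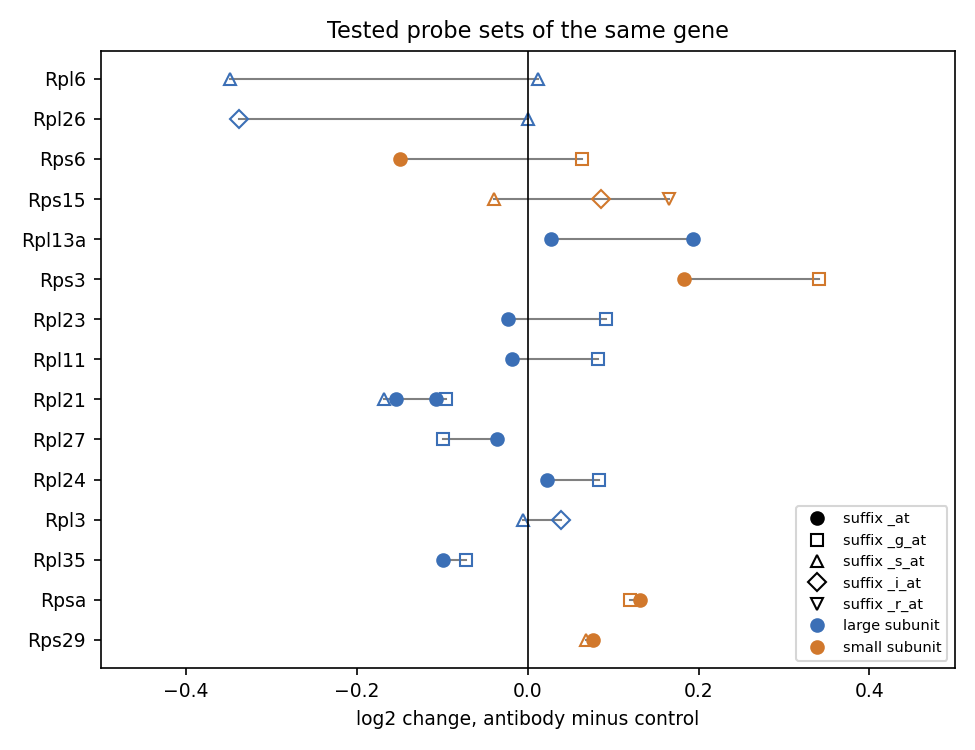
Log2 change (horizontal axis, antibody minus control) of every tested probe set of the 15 genes with at least 2, ordered by the gap between them; the marker gives the probe set suffix, the colour the subunit. Rpl6 and Rpl26 each have 1 probe set near −0.34 and 1 near 0, and the others span at most 0.21.

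The members' median difference between the control arrays was larger than their median change between the groups. Control replicate 1 was the lowest of the 4 arrays for 27 of the 43 large and 13 of the 21 small subunit probe sets. The highest was most often control replicate 2 in the large subunit (24 of 43) and antibody replicate 2 in the small subunit (14 of 21). The median difference between control replicates 2 and 1 was 0.28 in the large and 0.18 in the small subunit, and between antibody replicates 2 and 1 it was 0.09 and 0.17. These are differences of single arrays, while the group change compares means of 2 arrays.

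Together the 64 probe sets held 7.37% and 8.39% of the summed intensity in the controls and 7.72% and 8.33% after the antibody. The groups overlapped, with 7.88% ± 0.722 and 8.02% ± 0.43 (SD, n = 2). The large subunit held 4.74% and 5.46% in the controls and 4.89% and 5.25% after the antibody. The small subunit held 2.63% and 2.93%, then 2.83% and 3.08%. With the 40 probe sets of several symbols added, the shares were 12.6% and 14.6%, then 13.4% and 14.4%, in the same order of arrays.

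**Figure D3:**
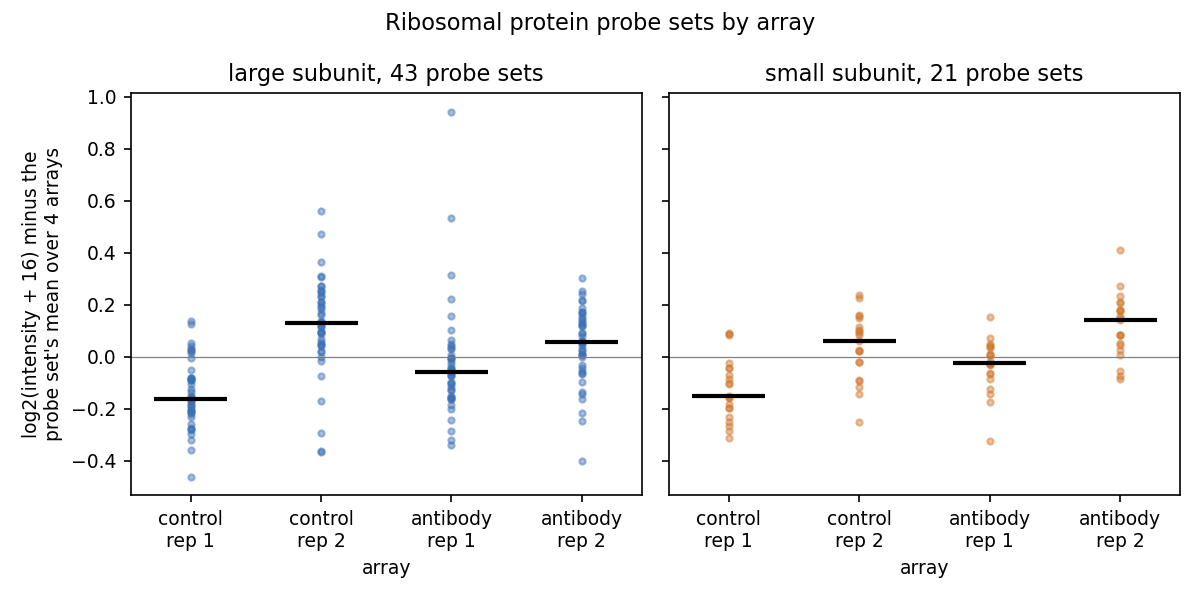
Each member's log2(intensity + 16) minus its own mean over the 4 arrays (vertical axis), by array (horizontal axis), large subunit left and small subunit right; bars are medians. The medians are −0.16 and −0.15 on control replicate 1, 0.13 and 0.06 on control replicate 2, −0.06 and −0.02 on antibody replicate 1 and 0.05 and 0.14 on antibody replicate 2.

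Control replicate 2 was above control replicate 1 for 52 of the 64 members, against 42.9% of all tested probe sets and 62.3% of the 236 bright ones that were not ribosomal. Antibody replicate 2 was above antibody replicate 1 for 50 members, against 50.2% and 52.5%. Both held for 43 members (67.2%), against 22.9% and 41.1%. In the 40 probe sets left out for their several symbols, the first held for 39 and both for 32. The 3′ to 5′ log2 ratio of beta-actin, a measure of RNA integrity, was 1.15 and 0.862 in the controls and 1.20 and 1.10 after the antibody, and that of GAPDH 0.0577 and −0.159, then −0.0685 and −0.0794. The summed intensity of 12 probe sets of meiotic germ cell markers was 1468 and 2321, then 1744 and 1138, and that of 4 erythroid ones 2065 and 3570, then 1868 and 2203. Replicate 2 was above replicate 1 in both groups for 2 of the 12 and 2 of the 4. The erythroid gene Alas2 had 158.4 and 218.0, then 72.8 and 51.9. Sums were 273.9 and 580.4, then 412.8 and 373.6 for spermatid markers. For macrophage markers they were 269.2 and 323.8, then 300.7 and 461.1, and for Leydig cell markers 2693.5 and 2736.1, then 2134.3 and 2321.7. The part of RNA integrity and of these cells in the ribosomal values was not tested.

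**Figure D4:**
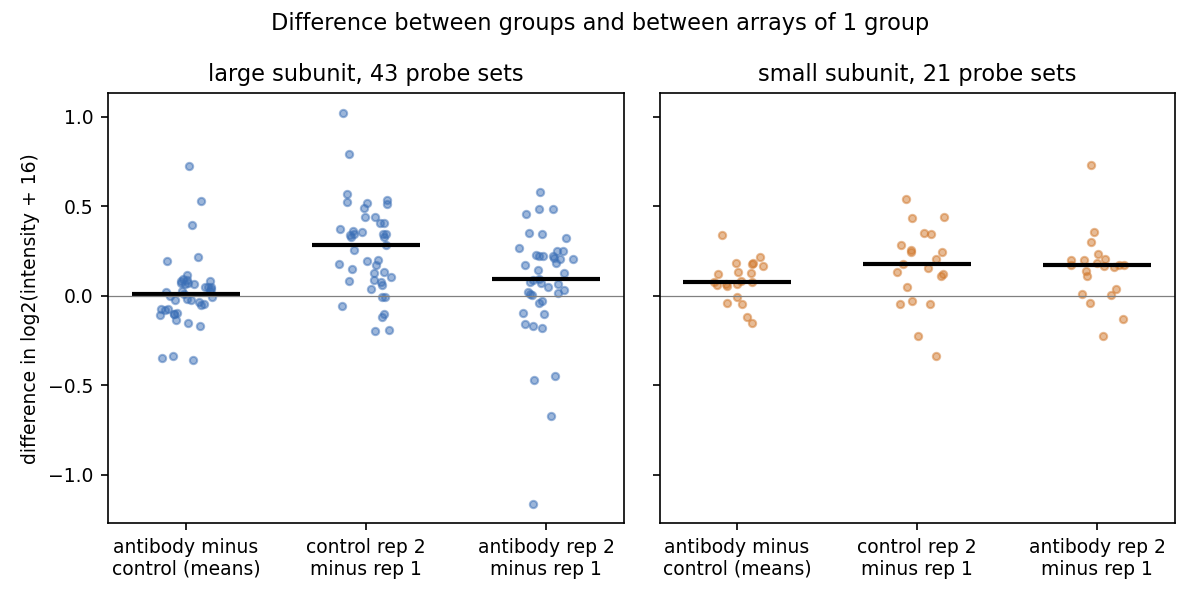
Difference in log2(intensity + 16) (vertical axis) of each member between the group means, between the control replicates and between the antibody replicates (horizontal axis), large subunit left and small subunit right; bars are medians. Medians are 0.01, 0.28 and 0.09 in the large and 0.08, 0.18 and 0.17 in the small subunit.

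The probe sets that the rule left out for several symbols were summarised in the same way. Their median change was 0.04 (24 above 0 and 16 below), and 0 of the 39 tested were called (limma, smallest adjusted p = 0.722; 0 at an unadjusted p under 0.05). The lowest tested value was −0.31, on a probe set of Rpl9 and its copies whose companion from the same sequence gave 0.10. The highest was the 0.36 of Rpl30 and its copies.

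Other genes of translation, from lists of known roles, held 89 tested probe sets, and 0 were called (limma; 4 at an unadjusted p under 0.05). Rack1, a signalling scaffold that sits on the small subunit, had 1335.4 and 1558.0 in the controls and 1561.1 and 1410.2 after the antibody (0.04 ± 0.16, and −0.0062 with median centring). Elongation factors (9 tested probe sets, median change 0.04 over all 10) included Eef2, which moves the ribosome along the mRNA, at 641.5 and 720.9 against 546.8 and 574.5 (−0.27 ± 0.16, adjusted p = 0.731). The other 3 Eef2 probe sets gave 0.17, 0.14 and −0.09, the first of them the brightest (2171.8 and 2292.0 against 2623.8 and 2403.9). Eef1a1, which brings aminoacyl-tRNA, gave −0.18 ± 0.15 and −0.16 ± 0.22. Initiation factors (28 tested, median 0.03 over all 31) included Eif4ebp1, the mTOR-controlled inhibitor of the cap-binding protein Eif4e, at 0.33 ± 0.17 (0.29 and 0.11 on its other probe sets), and Eif5b, a subunit joining factor, at 0.22 ± 0.17.

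Genes that act upstream of ribosomal protein synthesis did not pass either. Of 10 tested probe sets of S6 kinases and mTOR signalling, Akt2, a kinase of the insulin pathway, had 88.6 and 98.2 in the controls and 65.6 and 37.9 after the antibody (−0.72 ± 0.22, adjusted p = 0.437), with antibody replicate 2 the lowest array. Its other, brighter probe set lay on the other side of 0, at 259.5 and 229.4 against 244.3 and 315.2 (0.18 ± 0.19), with overlap. Tsc2, an inhibitor of mTOR, had 117.8 and 101.7 against 151.9 and 144.9 (0.39 ± 0.17, adjusted p = 0.61). The list's median was −0.0002 over all 11 probe sets and 0.08 over the 10 tested. Ribosome assembly and rRNA synthesis had a median of 0.06 over all 20 probe sets and 0.11 over the 16 tested. Dkc1, the pseudouridine synthase of rRNA, was at 595.6 and 488.7 against 720.7 and 689.2 (0.38 ± 0.17, adjusted p = 0.634). Its other probe set gave 0.24. Myc, a driver of ribosome synthesis, gave 0.45 ± 0.23 on the 1 of its 2 probe sets that was bright enough to be tested.

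Other mRNAs with a terminal oligopyrimidine tract had a median of −0.09, with 6 of 17 probe sets above 0 and 11 below. Hnrnpa1, a splicing regulator, had 165.2 and 220.8 in the controls and 146.2 and 127.7 after the antibody (−0.44 ± 0.19, adjusted p = 0.61). Its brightest probe set gave 0.08 ± 0.16 and another −0.04 ± 0.18, both with overlap. This list shares the probe sets of Eef2, Eef1a1, Eef1g and Rack1 with those above. Mitochondrial ribosomal proteins, whose subunits serve the separate ribosome of mitochondria, had a median of −0.05 over 17 probe sets, 6 above 0 and 11 below. Mrpl38 had 55.3 and 61.4 in the controls and 15.6 and 30.4 after the antibody (−0.96 ± 0.23, adjusted p = 0.22). Antibody replicate 1 was its lowest array. Its other, brighter probe set, from the same sequence, had 128.7 and 96.6 against 130.6 and 88.3, with overlap (−0.05 ± 0.22). Mrps31 gave −0.32 ± 0.22 and −0.24 ± 0.19.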

How the data were processed

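Each deposited value is an intensity on a linear scale. Software, scaling and background correction are not stated in the labels or headers used here; the trimmed mean was between 124.6 and 124.9 on every array. No detection calls were used, so signal over background cannot be told. Of the 8799 probe sets, 7018 have 1 symbol, 308 several and 1473 none in the platform annotation; 59 controls were not tested. Symbols of members were checked through the Entrez identifier against RefSeq (GRCr8; 63 of 64 found, none changed).

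Values were analysed as log2(intensity + 16) by lmFit and by eBayes, which let the variance follow intensity (limma 3.58.1, R 4.3.3, two-sided, Benjamini-Hochberg). The code was run on simulated data with independent values and variances taken from this fit. That run cannot show how the p-values behave where many probe sets shift together on an array. The members, lists, tests and alternatives were chosen with earlier results of these data known. Named probe sets were, per subunit, the 4 with the smallest p in each direction, the 4 brightest and the 2 with the widest gap within a group; every called member (there was none); Rplp0, Rplp1, Rplp2, Rpsa, Rps6 and paralogs or pseudogenes, where present; the 4 genes whose probe sets lay farthest apart; and 2 genes of each translation list. Probe sets outside this rule (Rpl9, the second Rpl3, Rpl13a and Rpl30 probe sets, other probe sets of the translation list genes, and markers) were chosen after their values were seen.

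Alternatives were quantile normalization, median centring, a constant of 1 or 64, no filter or the 60th percentile, no trend, each array left out, the replicate number as a block, 1 value per gene, and other member lists.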

Additional observations from a re-analysis of the deposited data

How the results depend on the processing

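No member was called with any normalization, constant, filter or trend setting, with the block or with any other member list. Leaving out 1 array called 0 to 1 large subunit probe sets (Rpl19l4, without antibody replicate 2), 0 small subunit probe sets and 0 to 2 of the other translation genes; the lone array of a group is then assumed to vary like the other group. The median of the large subunit was −0.11 to 0.16 and that of the small subunit −0.03 to 0.20 with 1 array left out, both lowest without control replicate 1; the large median was −0.03 with median centring. Over the whole table, against 14 calls, 0 passed with quantile normalization (420 at an unadjusted p under 0.05 by limma), 0 with no filter (702) and 4 with median centring, and 0 to 154 with 1 array left out (0 without either control array, 154 without antibody replicate 1 and 93 without antibody replicate 2).

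Replicate numbers are not said to pair samples, and over all tested probe sets deviations of same-numbered arrays did not correlate (0.0039). Among the members, replicate 2 was above replicate 1 in both groups for 67.2%, against 22.9% of all tested probe sets and 41.1% of the bright ones that were not ribosomal. With the replicate block 39 probe sets passed over the whole table and 0 members.

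Of 48 named probe sets, 16 turned in direction in some setting, 11 of them only when an array was left out. Rpl3 became −0.0040 with quantile normalization and −0.0077 with median centring, Rpl26 (_s_at) −0.018 and −0.046, Rps4x-ps9 0.037 with quantile normalization, and with median centring the Rpl6 probe set near 0 became −0.034 and Rack1 −0.0062. With 1 array left out, the lowest and highest changes of those that turned were −0.062 and 0.195 for Rpl27a, −0.019 and 0.113 for Rplp0, −0.061 and 0.207 for Rpl19, −0.046 and 0.123 for Rpl3, −0.607 and 0.414 for Rpl21 (the probe set with the wide gap), −0.172 and 0.085 for Rps23, −0.258 and 0.179 for Rps15 (_s_at), −0.11 and 0.246 for Rps29, −0.281 and 0.452 for Rps15 (_i_at), −0.090 and 0.352 for Rpsa (_at), −0.053 and 0.293 for Rpsa (_g_at), −0.089 and 0.082 for Rps4x-ps9, −0.098 and 0.122 for Rpl6, −0.126 and 0.127 for Rpl26 (_s_at), −0.0037 and 0.334 for Rps15 (_r_at) and −0.070 and 0.15 for Rack1. The cause was not tested. With 2 arrays per group and no detection calls, precision is limited by their number.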
